A study of Homo sapiens with 3 samples.

Results

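The comparison described here sets the radioresistant library, RR, against the untreated control library, CC, in CAL-27, an established human line of tongue squamous carcinoma. Both belong to a series of 3 small RNA libraries, with 1 library in each of the groups CC, Mock and RR, so 2 of 3 libraries enter the comparison and every row of the deposited table, 1149 mature microRNAs (miRNAs), is a member. The RR cells had received X-rays at 2 Gy a day in 2 cycles of 5 days, each cycle followed by 2 weeks of recovery, and were then cloned from single cells; CC clones came from the same parental cells without irradiation, and Mock clones from cells given 2 Gy once. The labels do not say how many clones a library holds, so a difference between the libraries cannot be told apart from a difference between clones. The treatment tag that names a 2 Gy dose stands on the library titled RR and the one that names irradiation without a dose on the library titled Mock, so each direction given for RR is that of the library labelled RR. With 1 library a side, replicates are lacking for every difference and p-values are left out.

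A miRNA is cut as a duplex from a hairpin in a longer transcript, and one strand of the duplex is loaded into an Argonaute protein while the other is mostly lost. The loaded strand pairs with messenger RNAs chiefly through its seed, bases 2 to 8 from its 5′ end, and lowers their translation and stability. miRNAs with 1 seed form a family that shares targets, and hairpins lying close together on 1 strand are often cut from 1 transcript and tend to be made together. In squamous epithelium and its tumours, miR-205-5p and the miR-200 family are abundant and keep the epithelial state by holding down ZEB1 and ZEB2.

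The sequences below are those the comparison turns on, as the deposited table lists them (T in place of U, 5′ to 3′), with the seed in capitals. Locations are those of the mature miRNA in RefSeq (GRCh38.p14), and 1045 of the 1149 listed miRNAs matched RefSeq by name, all with the same sequence. The first set holds miRNAs that are the exact reverse complement of a more abundant one, which follows each of them. Among the measured miRNAs it includes the 2 that stood lowest in RR, miR-103b and miR-3529-3p.
miR-103b: tCATAGCCctgtacaatgctgct
miR-103a-3p: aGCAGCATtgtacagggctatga
miR-3529-3p: aACAACAAaatcactagtcttcca
miR-7-5p: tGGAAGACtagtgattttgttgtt
miR-374c-3p: cACTTAGCaggttgtattatat
miR-374b-5p: aTATAATAcaacctgctaagtg
miR-3184-3p: aAAGTCTCgctctctgcccctca
miR-423-5p: tGAGGGGCagagagcgagacttt

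The second set holds the other miRNAs that differed by 1.5-fold or more once the general shift was taken out, with miR-550a-3-5p, whose sequence is contained in that of miR-550a-5p.
miR-3182: gCTTCTGTagtgtagtc
miR-550a-5p: aGTGCCTGagggagtaagagccc
miR-550a-3-5p: aGTGCCTGagggagtaagag
miR-210-3p: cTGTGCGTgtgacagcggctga
miR-877-5p: gTAGAGGAgatggcgcaggg

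The third set holds miRNAs of the loci on chromosomes 3 and 11, of the let-7 family and of the miR-196 family described below, and miR-27a-5p, the highest of the abundant miRNAs. miR-15b-5p and miR-16-5p share the seed AGCAGCA, the let-7 members the seed GAGGTAG and both miR-196 members the seed AGGTAGT.
miR-15b-5p: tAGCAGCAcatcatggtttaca
miR-16-5p: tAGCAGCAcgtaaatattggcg
miR-15b-3p: cGAATCATtatttgctgctcta
miR-16-2-3p: cCAATATTactgtgctgcttta
miR-192-5p: cTGACCTAtgaattgacagcc
miR-194-5p: tGTAACAGcaactccatgtgga
miR-194-3p: cCAGTGGGgctgctgttatctg
let-7a-5p: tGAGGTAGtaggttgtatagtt
let-7c-5p: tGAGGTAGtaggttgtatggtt
let-7i-5p: tGAGGTAGtagtttgtgctgtt
miR-196a-5p: tAGGTAGTttcatgttgttggg
miR-196b-5p: tAGGTAGTttcctgttgttggg
miR-27a-5p: aGGGCTTAgctgcttgtgagca

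The per-million scale rests on 10769990 reads in CC and 10473400 in RR, and the listed miRNAs took 16.3% and 20.5% of them, or 1750776 and 2147869 reads. Levels are in rpm, reads per 1000000 reads of that total, with exact 95% Poisson intervals. A count of 3 reads, the floor used here, corresponded to 0.279 rpm in CC and 0.286 in RR. Intervals and floors cover counting error only, since PCR copies are not independent molecules. In the 208 miRNAs whose 3-library mean reached 10 rpm, called measured from here on, the median log2 ratio of RR over CC (1 rpm added to each level) was 0.36, with an order-statistic 95% interval of 0.30 to 0.39 over miRNAs. This general shift, 1.28-fold, was subtracted from every log2 ratio given below. Folds printed with an interval are ratios of the deposited levels divided by that shift, called folds beyond the shift.

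With the shift taken out, the profiles of RR and CC lay close together. Past 1.5-fold lay 3 of 208 miRNAs on the higher side in RR (1.44%) and 3 on the lower (1.44%), 6 in all (2.88%). At 2-fold the counts were 0 higher (0.0%) and 2 lower (0.962%). By construction 50.0% of miRNAs lay above the shift. The quartiles of the log2 ratio were -0.16 and 0.14, and 161 miRNAs (77.4%) were within 1.25-fold of the shift. The spread was wider below 100 rpm than above: the SD of the log2 ratio was 0.41 over 72 miRNAs of 10 to 30 rpm, 0.35 over 43 of 30 to 100 rpm, 0.20 over 62 of 100 to 1000 rpm and 0.18 over 31 above that. Single miRNAs weigh on the lower classes, whose SDs were 0.28 without miR-103b and 0.30 without miR-3529-3p. Of the 93 miRNAs at 100 rpm or above in the mean, 0 were past 1.5-fold. The counting interval of the ratio excluded the shift for 115 of 208 miRNAs (55.3%), all 6 called miRNAs among them, so that many differences were larger than counting error and yet small. Fewer cells with a miRNA and less of it per cell cannot be told apart in RNA from bulk cultures.

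**Figure D1:**
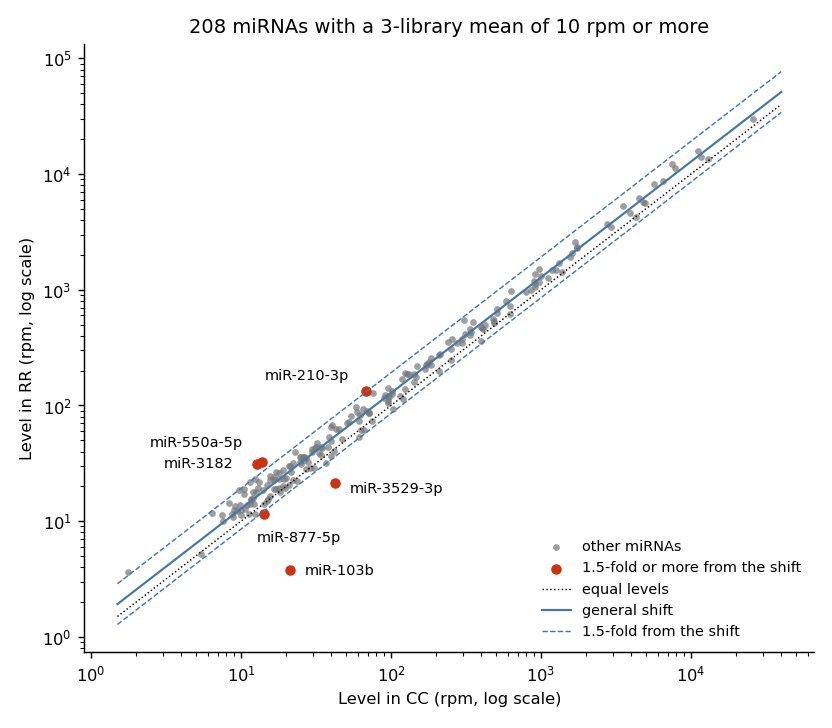
Levels of 208 miRNAs in CC (x axis) and RR (y axis), both in rpm on log scales, with 1 point per miRNA. The solid line marks the general shift of 1.28-fold, dashed lines 1.5-fold to either side of it and the dotted line equal levels; 3 red points lie above the dashed band and 3 below.

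The 2 miRNAs that were lower by over 2-fold, miR-103b and miR-3529-3p, are both listed as the exact reverse complement of a more abundant miRNA. miR-103b stood at 21.4 rpm in CC (230 reads) and 3.82 in RR (40 reads), beside 8.65 in Mock, and was 7.16-fold lower beyond the shift (5.10 to 10.3; log2 -2.57). Its mature sequence occupies chr5:168560904-168560926 and chr20:3917541-3917563, the same bases as miR-103a-3p on the opposite strand, in introns of PANK3 and PANK2, which encode pantothenate kinases. miR-103a-3p itself, a miRNA that targets DICER1, stood at 128 rpm in CC and 187 in RR, 1.14-fold higher (1.06 to 1.22). The strands thus lay on opposite sides of the shift, and their sum was at 0.998 of it (0.934 to 1.07).

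miR-3529-3p, at chr15:88611856-88611879, stood at 42.6 rpm in CC (459 reads) and 21.6 in RR (226 reads), beside 50.8 in Mock, and was 2.53-fold lower (2.15 to 2.98; log2 -1.31). Its reverse complement, miR-7-5p, which represses the EGF receptor, was also low: 4300 rpm in CC and 4243 in RR, 1.30-fold lower (1.28 to 1.31; log2 -0.38). The match to RefSeq by name found miR-7-5p at chr9:83969811-83969834, in MIR7-1 within HNRNPK, and at chr19:4770700-4770723, in MIR7-3. As the exact reverse complement, the miR-7-5p sequence also lies opposite miR-3529-3p on chromosome 15. The match by name may thus not hold every hairpin of miR-7-5p. Here both members of the pair were below the shift, the rarer one further. Their sum was at 0.767 of the shift (0.757 to 0.777). As 46316 of its 46775 reads in CC were miR-7-5p, the sum follows that miRNA and says little of the rarer strand.

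Another such miRNA did not pass the abundance filter, because its mean over 3 libraries was under 10 rpm. miR-374c-3p, chosen after its values were seen, stood at 23.8 rpm in CC (256 reads) and 0.191 in RR (2 reads), beside 0.470 in Mock (5 reads), a ratio beyond the shift of 0.00628 (0.000756 to 0.0229). It lies at chrX:74218587-74218608, opposite miR-374b-5p, which stood at 45.1 rpm in CC and 63.1 in RR, 1.09-fold beyond the shift with an interval (0.970 to 1.23) that includes it. CC was the library with the high level; Mock was near RR.

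Set against its partner, the rarer strand was most abundant in CC for each of these 3 pairs, which were picked for its low level in RR. Over all 12 exact pairs with at least 1 measured member the percentage was highest in CC for 6, in Mock for 2 and in RR for 4. Of 7 pairs whose rarer strand had 40 or more reads in a library, these counts were 4, 2 and 1. Some of the 12 are both arms of 1 hairpin, such as miR-625-5p and miR-625-3p, rather than miRNAs of opposite strands. miR-374c-3p came to 52.7% of miR-374b-5p in CC (45.1% to 61.4%), 0.676% in Mock and 0.303% in RR (0.0366% to 1.10%). miR-103b came to 16.6% of miR-103a-3p in CC (14.4% to 19.1%), 2.08% in Mock and 2.04% in RR (1.45% to 2.79%), and miR-3529-3p to 0.991%, 0.644% and 0.509% of miR-7-5p. The strands of the miR-423 locus, chr17:30117095-30117117 for miR-423-5p, differed far less: miR-3184-3p was 3.34% of miR-423-5p in CC and 2.43% in RR, and miR-3184-5p was 2.42% and 3.01% of miR-423-3p. A low share in RR was therefore not common to all miRNAs listed on both strands. The sources used here do not state how strands were assigned, and the part of that step in these values was not tested.

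**Figure D2:**
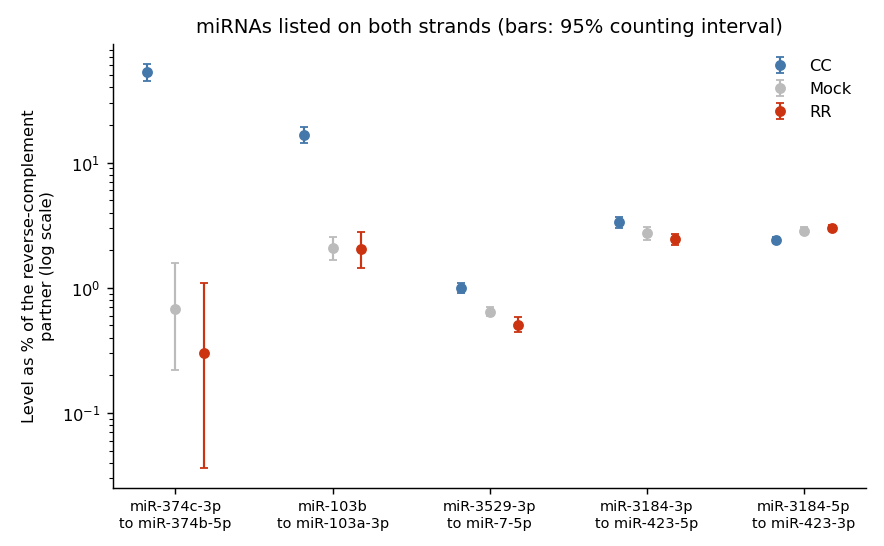
Level of the rarer strand as a percentage of its reverse-complement partner (y axis, log scale) for 5 pairs in CC, Mock and RR, with 95% counting intervals as bars. For miR-374c-3p and miR-103b the CC points, 52.7% and 16.6%, stand far above Mock and RR, whereas the pairs of the miR-423 locus lie between 2.42% and 3.34% in CC and RR.

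The remaining miRNA below the 1.5-fold line, miR-877-5p, is spliced from an intron of ABCF1 at chr6:30584332-30584351. It stood at 14.3 rpm in CC and 11.6 in RR, beside 6.49 in Mock, and was 1.57-fold lower beyond the shift (1.23 to 2.01; log2 -0.63). The next lowest, just outside the line, was miR-1248 at log2 -0.56, with 61.3 rpm in CC and 53.1 in RR, beside 4.14 in Mock; its hairpin overlaps the small nucleolar RNA SNORA81 in EIF4A2. The interval of miR-877-5p includes 1.5-fold, so its place inside the line is not settled at this depth.

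On the upper side stood miR-3182, miR-550a-5p and miR-210-3p. miR-3182, a listed sequence of 17 bases at chr16:83508349-83508365 within an intron of CDH13, stood at 12.8 rpm in CC (138 reads) and 30.9 in RR (324 reads), beside 48.6 in Mock. It was 1.89-fold higher beyond the shift (1.54 to 2.32; log2 0.85). miR-550a-5p, from hairpins on chr7:30289815-30289837, in an intron of ZNRF2, and chr7:32733002-32733024, stood at 13.8 rpm in CC and 32.7 in RR, beside 38.8 in Mock. It was 1.84-fold higher (1.52 to 2.25; log2 0.83). For both, CC was the low library, and Mock exceeded RR.

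The shorter form listed as miR-550a-3-5p lay on the same side as miR-550a-5p. It had 0 reads in CC and 13 in RR (1.24 rpm), beside 7 in Mock, at least 4.46-fold higher than the floor of 3 reads in CC before the shift is removed. Reads of the 2 rows cannot be kept apart by sequence over the first 20 bases, and their sum was 1.91-fold higher beyond the shift (1.58 to 2.33).

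miR-210-3p was the most abundant of the 6 called miRNAs. It is induced by HIF-1 in hypoxia and represses ISCU, a scaffold for iron-sulphur clusters. It stood at 68.1 rpm in CC (733 reads) and 133 in RR (1396 reads), beside 37.7 in Mock, 1.53-fold higher beyond the shift (1.40 to 1.68; log2 0.60). The interval, like that of miR-877-5p, includes 1.5-fold. RR was the highest of the 3 libraries. The mature sequence lies at chr11:568112-568133, in an intron of MIR210HG. The other arm of the hairpin, miR-210-5p, stood at 16.6 rpm in CC and 18.8 in RR, beside 4.23 in Mock, with log2 -0.19 and an interval (0.718 to 1.09) that includes the shift.

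Just under the upper line lay miR-345-5p (log2 0.51), miR-194-3p (0.51) and miR-152-3p (0.51), each between 9.66 and 12.3 rpm in CC and between 18.4 and 23.3 rpm in RR. miR-152-3p, from an intron of COPZ2, targets the DNA methyltransferase DNMT1. Its family members by seed stood lower, miR-148a-3p at log2 0.02 and miR-148b-3p at -0.17. Further members of the upper 12 were miR-196b-5p (0.44), miR-146b-5p (0.43) and miR-203a-3p (0.40), which promotes keratinocyte differentiation and was 1.34-fold higher beyond the shift (1.14 to 1.58). miR-206 was in this group on 1.76 rpm in CC and 3.63 in RR and passed the filter through its 25.5 rpm in Mock. Its interval, 0.904 to 2.95, includes the shift. miR-146b-5p, at 6.41 rpm in CC and 11.7 in RR, also needed its 17.7 rpm in Mock to pass the filter, and its interval was 1.06 to 1.95.

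**Figure D3:**
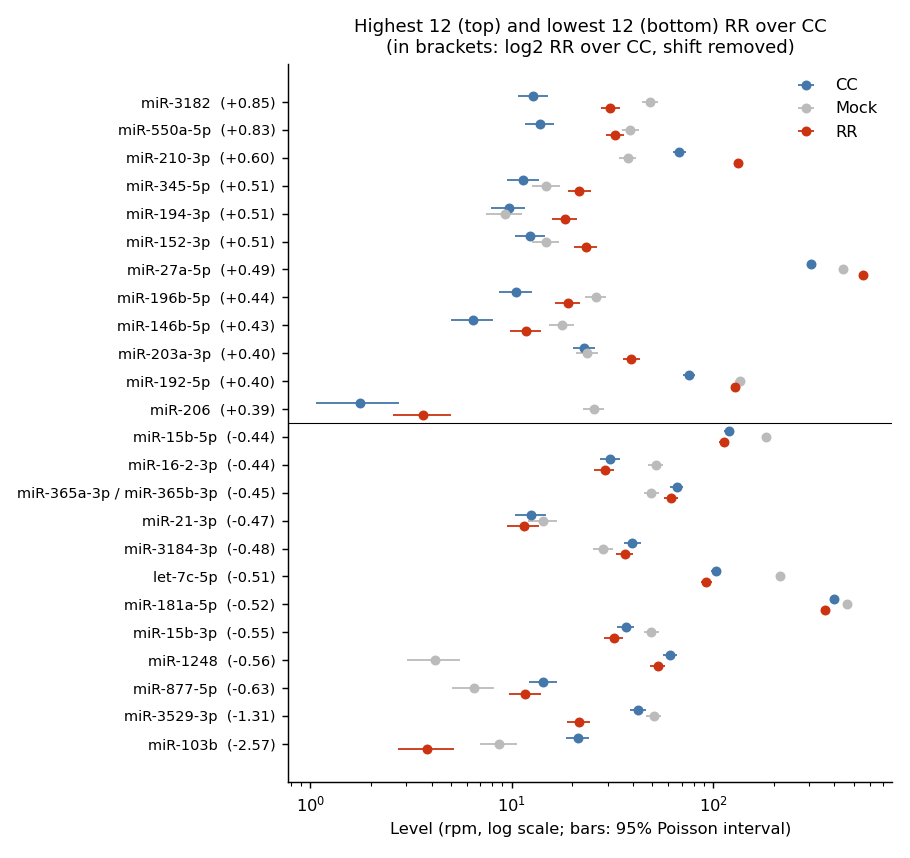
Levels in CC, Mock and RR (x axis, rpm, log scale) of the 12 miRNAs highest and the 12 lowest in RR over CC, with 95% Poisson intervals as bars and the shift-removed log2 ratio in brackets. The CC (blue) and RR (red) intervals are well apart for miR-103b, miR-3529-3p, miR-3182, miR-550a-5p and miR-210-3p, and many of the lower 12 have nearly equal levels in CC and RR, which places them below the shift.

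Among the 93 abundant miRNAs, which carry the most reads, miR-27a-5p stood highest. It had 306 rpm in CC and 553 in RR, beside 439 in Mock, and was 1.41-fold higher beyond the shift (1.35 to 1.47; log2 0.49). The more abundant arm of that hairpin, miR-27a-3p, was 1.19-fold higher (1.17 to 1.22), with 1697 and 2592 rpm. Next came miR-192-5p, let-7i-5p, miR-151a-3p, miR-339-3p and miR-744-5p, at log2 0.40, 0.33, 0.28, 0.26 and 0.25. Even the highest of the abundant miRNAs was thus under 1.5-fold.

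At the low end of the abundant miRNAs were miR-181a-5p, let-7c-5p, miR-15b-5p and miR-574-3p. miR-181a-5p stood at 400.2 rpm in CC and 358 in RR, beside 460.1 in Mock, 1.43-fold lower beyond the shift (1.37 to 1.49; log2 -0.52). miR-181b-5p, which has the same seed, was at log2 -0.11. miR-574-3p stood at 209 rpm in CC and 199 in RR (log2 -0.43), miR-197-3p at 622 and 618 (-0.36), and let-7b-3p at 251 and 248 (-0.38). Levels of these 3 were almost equal in both libraries, and they lie low relative to the shift of all miRNAs. miR-92a-3p, one of the 10 most abundant miRNAs, was 1.23-fold lower (1.22 to 1.24), with 12959 and 13443 rpm.

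Loci differed in how close together their miRNAs lay. RefSeq placed 2 or more measured hairpins within 10000 bases on 1 strand for 16 loci, counting miRNAs with a single hairpin in the table. The range of log2 ratios within a locus had a median of 0.29. The quartiles of all 208 miRNAs were 0.31 apart, but a full range over a few miRNAs is an unlike measure of spread. The values therefore do not show whether loci were as spread as all miRNAs. Members lay on both sides of the shift in 10 of the 16 loci, wholly below it in 5 and wholly above it in 1. As 6 of the loci hold just 2 such miRNAs, these counts do not show that loci differ as units. The locus of miR-15b and miR-16-2, on chromosome 3 in an intron of SMC4, a condensin subunit, was the lowest. Its 3 miRNAs with no other source in the table were miR-15b-5p at log2 -0.44, miR-15b-3p at -0.55 and miR-16-2-3p at -0.44.

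The miR-15 and miR-16 family represses BCL2 and several cyclins of the G1 phase. miR-15b-5p stood at 120.3 rpm in CC and 114 in RR, beside 183 in Mock, 1.36-fold lower beyond the shift (1.25 to 1.47). miR-15b-3p stood at 36.8 and 32.1 rpm, 1.47-fold lower (1.27 to 1.70), and miR-16-2-3p at 30.8 and 28.9 rpm, 1.36-fold lower (1.16 to 1.60). All 3 intervals exclude the shift. miR-16-5p, which is also made from MIR16-1 on chromosome 13, was at log2 -0.22, with 46.8 rpm in CC and 51.7 in RR. Both measured guide strands of the family were below the shift, and 0 of 2 passed 1.5-fold.

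The locus that lay wholly above the shift was that of miR-192 and miR-194-2 on chromosome 11, in exons of MIR194-2HG, a long non-coding RNA. miR-192-5p, which p53 induces, stood at 76.3 rpm in CC and 129 in RR, beside 136 in Mock, 1.32-fold higher beyond the shift (1.21 to 1.44). miR-194-3p stood at 9.66 rpm in CC and 18.4 in RR, beside 9.22 in Mock, 1.49-fold higher (1.17 to 1.91). miR-194-5p, also made from MIR194-1 on chromosome 1, was 1.12-fold higher (1.02 to 1.24). Of 12 p53-induced miRNAs listed, miR-192-5p and miR-194-5p were the ones measured, and 0 of 2 passed 1.5-fold. miR-34a-5p, the best known of the group, had 1 read in CC, under the floor of 3, and 6 in RR. The interval of its fold beyond the shift, 0.585 to 222, includes the shift.

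In the miR-23a, miR-27a and miR-24-2 locus on chromosome 19, miRNAs lay on both sides of the shift. miR-27a-5p and miR-27a-3p were above the shift, as was miR-24-3p (1.18-fold, 1.15 to 1.21), which is also made from a hairpin elsewhere. miR-23a-3p, cut from the same transcript as miR-27a, was at log2 -0.13. The other arm of the miR-23a hairpin, miR-23a-5p, was at log2 0.18, with an interval (0.924 to 1.46) that includes the shift. With the paralogous cluster on chromosome 9, 7 of 11 members were measured, 5 of them above the shift, with a median of 0.18 and 0 past 1.5-fold.

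The let-7 family, which represses RAS genes and HMGA2, lay above the shift as a group, with 1 exception. Of 9 guide strands measured, 8 were above the shift, beside 104 of all 208 miRNAs by construction. Their median was 0.17 beside 0 for all miRNAs by construction, and 0 passed 1.5-fold. let-7i-5p stood at 7527 rpm in CC and 12140 in RR, 1.26-fold higher beyond the shift (1.25 to 1.27), and let-7e-5p and let-7g-5p were 1.19-fold and 1.18-fold higher. let-7c-5p went the other way: 103 rpm in CC and 92.6 in RR, beside 215 in Mock, 1.43-fold lower (1.31 to 1.56). It differs from let-7a-5p by A19G, counted from the 5′ end with the base of let-7a-5p first, and let-7a-5p had 11155 rpm in CC and 15839 in RR. The sources used here do not state how reads of such near copies were divided, so the level of let-7c-5p is uncertain. miR-99a-5p, from the same locus on chromosome 21 as let-7c-5p, was at log2 0.04. Of the passenger strands 4 of 11 were measured, 3 of them below the shift, with a median of -0.23.

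Of 8 listed miRNAs embedded in the HOX gene clusters, 5 were measured and 4 were above the shift, beside 104 of all 208 by construction. Their median was 0.22, and 0 passed 1.5-fold. With 5 measured members, the near copies miR-196a-5p and miR-196b-5p among them, this count does not set the group apart from all miRNAs. miR-196b-5p, of the HOXA cluster, stood at 10.5 rpm in CC and 19.0 in RR, beside 26.2 in Mock, 1.41-fold higher beyond the shift (1.12 to 1.80). The step from miR-196a-5p to miR-196b-5p is A12C, and miR-196a-5p stood at 59.1 rpm in CC and 88.5 in RR, 1.17-fold higher (1.06 to 1.30). miR-10b-5p was at log2 0.27, miR-615-3p at 0.18 and miR-10a-5p at -0.05.

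Families tied to growth and to the epithelial state stayed near the shift. Of 19 members of the oncogenic miR-17-92 cluster and its paralogues, 13 were measured and 9 lay below the shift, with a median of -0.11 and a range of -0.31 to 0.16. The 3 measured members of the miR-221 and miR-222 cluster, which represses the cell cycle inhibitor CDKN1B, had a median of -0.16. The miR-200 family had a median of -0.05 over 8 measured members, with a range of -0.11 to 0.14. miR-205-5p, the most abundant miRNA in both libraries, had 25945 rpm in CC and 29651 in RR, 1.12-fold lower beyond the shift (1.11 to 1.13). In each of these groups 0 members passed 1.5-fold. The side of a group is relative to the shift: with no shift removed, the medians of the miR-17-92 group, the miR-221 and miR-222 cluster, the miR-200 family and the let-7 passenger strands were 0.25, 0.20, 0.30 and 0.13, beside 0.53 for the let-7 guide strands.

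Other families gave medians close to the shift, again with 0 members past 1.5-fold. The median was 0.05 for 8 members of the miR-99, miR-100 and miR-125 families, 0.00 for 7 of the miR-30 family, 0.09 for 4 of the miR-148 and miR-152 family and 0.03 for 3 of the miR-183 cluster. It was lower for 4 miRNAs of the miR-193 and miR-365 clusters (-0.25), 2 of the miR-29 family (-0.17), which represses collagen genes, and 2 of the miR-191 and miR-425 locus (-0.18).

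**Figure D4:**
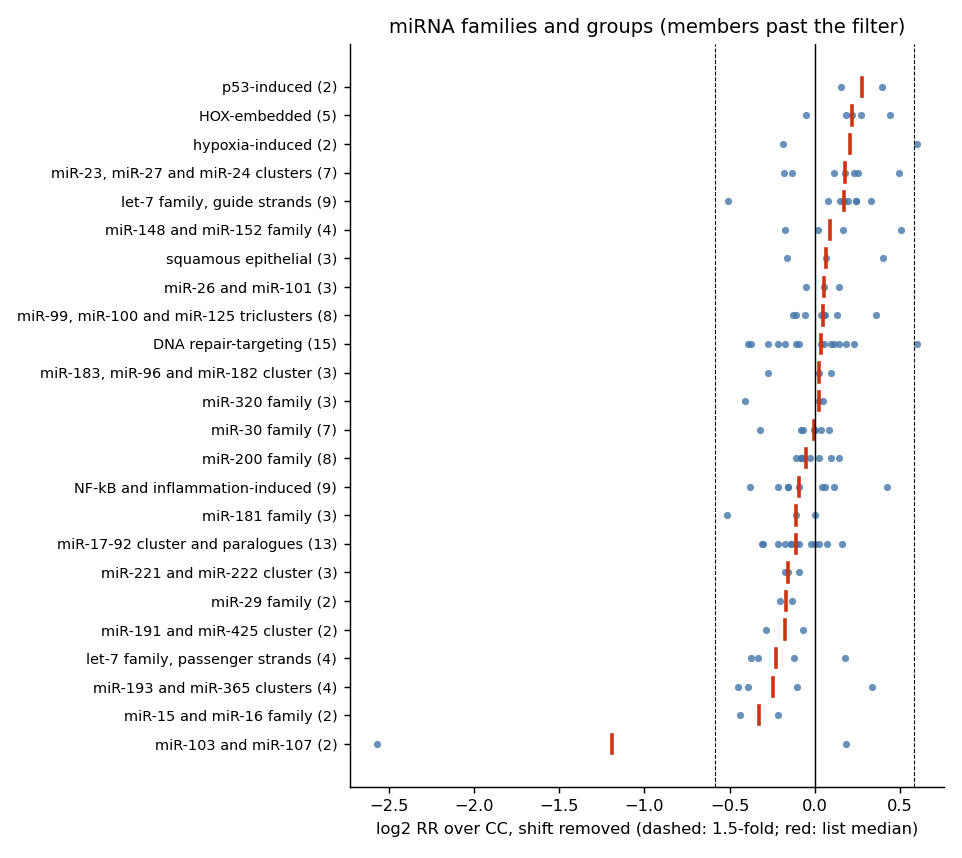
Shift-removed log2 ratio of RR over CC (x axis) for the measured members of each miRNA family or group with 2 or more of them; points are miRNAs, red bars medians, dashed lines 1.5-fold and brackets the number measured. Most medians lie within 0.25 of 0, and miR-103b and miR-210-3p are the points past the dashed lines.

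Groups chosen for their link to radiation are set beside all measured miRNAs, of which 6 of 208 (2.88%) passed 1.5-fold. Of 23 miRNAs known to target DNA repair genes, 15 were measured, 8 above and 7 below the shift, with a median of 0.04; 1, miR-210-3p, passed 1.5-fold. miR-24-3p, which targets the histone gene H2AX, was at log2 0.23, miR-101-3p at 0.15, miR-182-5p, which targets BRCA1, at -0.28 and miR-193b-3p at -0.39. Of 10 miRNAs induced by NF-kB and inflammation, 9 were measured, with a median of -0.09 and 0 past 1.5-fold. miR-146b-5p stood at 6.41 rpm in CC and 11.7 in RR (log2 0.43) while miR-146a-5p, which shares its seed, was at -0.16, miR-155-5p at -0.21 and miR-132-3p at -0.38. These groups thus held members on both sides of the shift. With 15 and 9 measured members, counts of 1 and 0 do not set them apart from all miRNAs.

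miR-21-5p, the miRNA named in the title of the series, lay near the shift. It stood at 4475 rpm in CC and 6209 in RR, beside 36929 in the library labelled Mock, and was 1.08-fold higher beyond the shift (1.07 to 1.10; log2 0.12), which ranked it 60th of 208 from the top. The passenger strand, miR-21-3p, stood at 12.4 rpm in CC and 11.5 in RR, 1.39-fold lower (1.08 to 1.79; log2 -0.47), the 9th lowest. The ratio of the 5p to the 3p arm was 360 in CC and 542 in RR, beside 2583 in Mock.

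Both arms were measured for 38 hairpins, and the same arm was the more abundant in CC and RR for all 38. The arms differed from each other in their log2 ratio by a median of 0.19, and by under 0.2 for 19 hairpins. The 5 pairs that differed most, by 5p minus 3p, were miR-210 (-0.79), miR-3184 (0.63), miR-296 (-0.62), miR-21 (0.58) and let-7b (0.55). For miR-210 the 3p arm was 4.09 times the 5p arm in CC, 8.91 times in Mock and 7.09 times in RR. For miR-296 it was 2.27 times in CC, 3.72 times in Mock and 3.50 times in RR. For let-7b the 5p arm was 22.5 times the 3p arm in CC, 34.3 times in Mock and 33.0 times in RR. The 3 pairs closest together were miR-32, miR-378a and miR-200b, with differences of 0.00, 0.01 and 0.03.

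**Figure D5:**
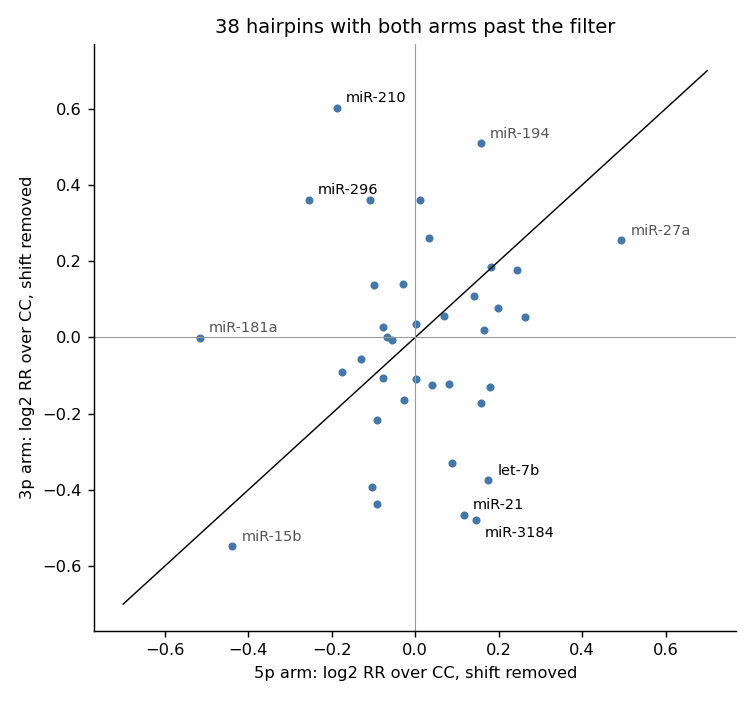
Shift-removed log2 ratio of RR over CC of the 5p arm (x axis) against the 3p arm (y axis) for 38 hairpins; the line marks equal ratios. miR-15b lies low and miR-27a high in both arms, while miR-210, miR-296, miR-21, miR-3184 and let-7b lie far from the line.

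Markers of other cell types were low in both libraries, apart from the muscle miRNA miR-1-3p, the neural miRNA miR-9-5p and the endothelial miRNA miR-126-3p. The 5 squamous epithelial markers were all measured and summed to 37902 rpm in CC and 44137 in RR. Blood markers, 6 of 7 in the table, summed to 9.56 rpm in CC and 12.3 in RR, mostly miR-486-5p, and 3 of the 6 had no reads in each library. The 4 mesenchymal markers in the table summed to 8.26 and 9.07 rpm, and the hepatic miR-122-5p stood at 4.46 and 2.96 rpm, 1.93-fold lower beyond the shift (1.20 to 3.13). The endothelial pair summed to 55.2 and 81.9 rpm, almost all miR-126-3p (53.9 and 80.5 rpm, log2 0.21). Of the 3 muscle markers miR-1-3p stood at 338 rpm in CC and 404 in RR, at log2 -0.10. The other muscle markers were low, miR-133a-3p at 1.02 and 0.859 rpm and miR-206 at 1.76 and 3.63 rpm. Of 2 neural markers 1 was in the table, miR-9-5p, at 170 and 224 rpm. Summed levels in Mock were 410 rpm for blood markers, far above both libraries compared here. The part of these cell types in the differences was not tested.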

How the data were processed

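Per the labels' protocols, total RNA was ligated to adapters, size-selected as small RNA libraries and read on a NovaSeq. The submitters' processing notes name Bowtie and GRCh38 without saying what each was used for; for trimming, the miRNA reference and multiply matching reads the steps were not given in the sources used here. The authors' values are called TPM but behave as RPM: 100% of the deposited values were whole multiples, within 0.01 of a read, of 1 step per library, so reads were recovered. The deposited length column gives bases and another column the sequence.

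Columns were assigned through the treatment tag of the labels. With 1 library per group no count model or test was fitted. Log2 ratios used a pseudocount of 1 rpm and the shift was the median over miRNAs with a 3-library mean of 10 rpm or more. Ratio intervals come from exact Clopper-Pearson limits on RR's share of both libraries' reads. Reverse complements and near copies were ungapped matches of 18 or more bases with at most 2 mismatches; those described on both strands had none. Host genes come from GENCODE release 29. Named miRNAs were both arms of miR-21, the 10 most abundant, the 12 highest and 12 lowest ratios, the 8 highest and 8 lowest at a mean of 100 rpm or more, up to 3 per list, the 5 arm pairs that differed most and the 3 least, and the 5 with most reads in 1 library and none in the other, each way; miR-374c-3p, miR-10395-3p, miR-505-5p, miR-34c-3p, miR-33a-5p and further members of families, lists, arm pairs or marker groups are named beside them. Members and lists were chosen with earlier results of these data known. The computation was tested on simulated data. Tools were scipy 1.17.1, pandas 2.3.3 and numpy 2.4.6 under Python 3.11.15, with plots by matplotlib 3.10.9.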

Additional observations from a re-analysis of the deposited data

How the results depend on the processing

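No paired analysis was possible because each group has 1 library, and for the same reason no replicate could be left out. The shift of 0.36 became 0.28 with a pseudocount of 10 rpm and 0.13 with no filter, where rows with few reads dominate; taken over miRNA reads alone, or over a common total that leaves out the 10 miRNAs of highest mean, the residual median was 0.026 and 0.043. Counts past 1.5-fold, 3 higher and 3 lower, became 1 higher with a pseudocount of 10 rpm, 9 and 17 with the filter at 1 rpm, 0 and 0 with it at 100 rpm, 43 and 34 with no filter, and 28 higher with no shift removed. With the filter on CC and RR alone 5 were lower, as miR-374c-3p and miR-10395-3p entered. Counts past 2-fold, 0 higher and 2 lower, became 4 lower with the filter at 1 rpm, 0 lower with it at 100 rpm, 3 higher and 4 lower with no filter, and 2 higher and 1 lower with no shift removed. miR-103b, miR-3529-3p and miR-210-3p remained past 1.5-fold in each of the 10 alternatives that test them. miR-3182 and miR-550a-5p came under it with a pseudocount of 10 rpm (0.56 and 0.56), and miR-877-5p with that pseudocount (-0.45), the filter at 1 rpm (-0.58), no filter (-0.41), no shift removed (-0.27), miRNA reads alone (-0.58) and the common total (-0.56). No called miRNA changed sign. A change of filter or shift cancels in the difference between arms, and rescaling RR nearly does, so those alternatives could not test the 8 arm pairs. With the other pseudocounts and the GC trend removed, the 8 differences moved by less than their counting error. Of 19 lists with 3 or more measured members, 18 medians moved by more than the SD of their members with no shift removed and 9 with no filter. Both of these settings shift all miRNAs alike. With each of the filter at 1 rpm, the common total and a pseudocount of 10 rpm, 1 list median moved. The number of reads limits miRNAs near 10 rpm, whose intervals span about 1.5-fold.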

Other observations

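miRNAs of 23 or more bases lay lower than shorter ones. With the shift taken out, 13 of 53 miRNAs of 23 or more bases lay above it, with a median of -0.14, against 74 of 127 miRNAs of 22 bases (median 0.03) and 17 of 28 of 21 or fewer (median 0.08). The order was similar among the 93 miRNAs whose mean reached 100 rpm, where the medians were -0.09 over 28 miRNAs, 0.03 over 56 and 0.11 over 9. Under 100 rpm the longest class was again lowest, with a median of -0.29 over 25 miRNAs, but the shorter classes did not keep that order, with 0.063 over 71 of 22 bases and 0.054 over 19 of 21 or fewer. Across the 208 miRNAs, the Spearman correlation with length was -0.27, and with GC content 0.05; the points share 2 libraries and are not independent.

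Below the filter, 941 miRNAs gave 0.458% of the miRNA reads of CC and 0.441% of those of RR. Of 182 with a mean of 1 to 10 rpm, the counting interval excluded the shift for 11 that were higher in RR and 14 that were lower (13.7%). With a fold beyond the shift of 2 or more as well, 3 were higher and 6 lower. These folds carry no pseudocount, so the counts differ from the 2-fold counts given above, which rest on log2 ratios with 1 rpm added. miR-374c-3p was the lowest, followed by miR-505-5p, with 29 reads in CC and 10 in both RR and Mock, 3.61-fold lower (1.71 to 8.30). miR-33a-5p, from an intron of SREBF2 and a regulator of cholesterol export, had 4 reads in CC and 18 in RR, beside 17 in Mock, 3.62-fold higher (1.19 to 14.7), and miR-34c-3p, of the p53-induced miR-34 group, had 6 in CC and 23 in RR, beside 15 in Mock, 3.08-fold higher (1.22 to 9.25). These miRNAs were chosen after their values were seen, and their intervals are wide.

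Of all 1149 miRNAs, 717 had reads in both libraries, 169 in RR alone, 150 in CC alone and 113 in neither. Most of those in 1 library had 3 reads or fewer: 22 of 169 had more in RR and 11 of 150 in CC. After miR-550a-3-5p, the most reads in RR with none in CC belonged to miR-6852-5p (10 reads, at least 3.43-fold higher than the floor, before the shift is removed), miR-4802-3p and miR-3163 (8 each) and miR-4682 (7). In CC with none in RR they belonged to miR-4654 (7 reads, at least 2.27-fold), miR-3176, miR-6881-3p and miR-3162-5p (6 each) and miR-3675-3p (5).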
